A study of Mus musculus with 3 samples.

Results

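The nuclear genes of oxidative phosphorylation were followed from nephron progenitors to proximal and distal tubule precursors in single cells from E14.5 (embryonic) kidneys of wild-type mice. Members were chosen by symbol: every name in the count tables that starts with Nduf, Uqcr or Atp5, with Sdh followed by a, b, c or d, or with Cox4, Cox5, Cox6, Cox7 or Cox8, leaving out names that hold -ps. This gave 96 genes of 32362 symbols listed in any table, of which 92 were listed in all 3 tables. A total of 90 passed the filter on low counts and were tested. Among them Ndufs5, of complex I, had 3647 and 5019 counts in Drop-seq and 10x and 0 in C1, so C1 gives no direction for it. Cox7b2 had 5, 5 and 39 counts and Cox8b 2, 1 and 0 counts in all cells of Drop-seq, 10x Chromium and Fluidigm C1, and both were removed by the filter. Cox6a2 and Cox8c had no count in the tables that list them, and Sdhaf3 and Sdhaf4 were listed in the 10x table only. These 4 genes were not tested either.

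The mice were of a mixed strain, mostly CD-1 and 129, and no other genotype, age or treatment was studied. Cells were captured on 3 platforms with 1 library each: Drop-seq and 10x Chromium isolate cells in droplets and count transcripts by molecular identifiers (UMIs), and Fluidigm C1 isolates cells on a chip, with read counts deposited. The labels do not say how many embryos or kidneys were pooled in a library, so the 3 libraries served as the replicates and a difference between platforms cannot be told apart from a difference between dissections. Some C1 column names share their column and row numbers and differ in the rest of the name. The labels do not say what this marks, so the C1 table may join more than 1 set of cells. It was treated as 1 library. The labels give no cell types. Cells were clustered in each library without the members, ribosomal protein, mitochondrial or haemoglobin genes. The further gene lists compared below, among them cell cycle, glycolysis and dissociation stress genes, were left out of the clustering too. Clusters were named from marker lists.

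After filters, 1964, 2130 and 883 cells remained in Drop-seq, 10x and C1, with medians of 7060 UMIs, 7369 UMIs and 166712 reads per cell, and no barcode was shared between libraries. The cap mesenchyme class, the Six2+ nephron progenitors, held 596, 196 and 75 cells in that order. The early nephron epithelium class held 122, 133 and 71 cells, the proximal tubule precursor class 152, 117 and 58 cells, and the class of distal tubule and loop of Henle precursors 204, 133 and 30 cells. The 30 distal cells of C1 had Calb1 and Gata3, markers of ureteric epithelium, among their leading genes beside the distal markers Mal, Tfap2b, Sostdc1 and Mecom, so the C1 distal values carry that limit. The erythroid marker genes, mostly haemoglobins, reached 1.047% of counts in Drop-seq stroma and were at most 0.5002% in the cap, early, proximal and distal classes of the 3 libraries.

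Oxidative phosphorylation takes electrons from NADH at complex I (Nduf genes) and from succinate at complex II (Sdha to Sdhd), passes them through complex III (Uqcr genes) to oxygen at complex IV (Cox genes), and uses the resulting proton gradient to make ATP at complex V, the ATP synthase (Atp5 genes). All subunits of complex II and most of the others are encoded in the nucleus, and the remainder in mitochondrial DNA. Nephron progenitors are known for active glycolysis, while the mature proximal tubule and thick ascending limb, which power sodium reabsorption, are among the tissues richest in mitochondria. By role, the tested members were 36 complex I subunits, 7 complex I assembly factors, 4 complex II subunits with 2 of their assembly factors, 8 complex III, 13 complex IV and 15 complex V genes. The remaining 5 were Ndufa4 and its paralogue Ndufa4l2, Cox7a2l, which is known for joining respiratory supercomplexes, and Atp5s and Atp5sl, which share the prefix but are not subunits of the core enzyme.

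Promoters are shown first for 4 of the members that were higher in proximal precursors, because most genes of that group share a binding motif near the start. The sequences are from RefSeq on GRCm38.p6, on the minus strand, and run from 250 bases before to 30 bases after the annotated start. Capitals mark matches on either strand to GCGCA and GCGC with any 1 base between them, the motif of nuclear respiratory factor NRF1, and to AAGGTCA, the core site of the estrogen-related receptors (ERR). These factors are known as activators of respiratory chain genes.
Ndufs6, chr13:73328453-73328732: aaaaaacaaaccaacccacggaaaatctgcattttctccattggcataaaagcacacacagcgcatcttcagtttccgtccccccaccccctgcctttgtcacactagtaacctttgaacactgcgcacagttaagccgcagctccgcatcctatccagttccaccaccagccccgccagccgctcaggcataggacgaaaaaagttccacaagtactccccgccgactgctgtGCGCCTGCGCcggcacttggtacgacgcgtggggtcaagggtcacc
Ndufb4, chr16:37654339-37654618: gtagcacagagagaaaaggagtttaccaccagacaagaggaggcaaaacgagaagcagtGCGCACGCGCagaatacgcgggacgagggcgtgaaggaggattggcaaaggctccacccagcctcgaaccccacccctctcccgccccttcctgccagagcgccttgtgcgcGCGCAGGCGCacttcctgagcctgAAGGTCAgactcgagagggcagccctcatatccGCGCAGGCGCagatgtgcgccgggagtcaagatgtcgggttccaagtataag
Atp5g3, chr2:73911297-73911576: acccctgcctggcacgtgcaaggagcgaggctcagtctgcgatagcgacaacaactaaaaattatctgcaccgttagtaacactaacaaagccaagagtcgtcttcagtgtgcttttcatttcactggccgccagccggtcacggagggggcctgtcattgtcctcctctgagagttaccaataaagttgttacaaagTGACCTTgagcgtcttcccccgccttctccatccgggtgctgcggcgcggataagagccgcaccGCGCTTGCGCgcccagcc
Uqcr10, chr11:4704315-4704594: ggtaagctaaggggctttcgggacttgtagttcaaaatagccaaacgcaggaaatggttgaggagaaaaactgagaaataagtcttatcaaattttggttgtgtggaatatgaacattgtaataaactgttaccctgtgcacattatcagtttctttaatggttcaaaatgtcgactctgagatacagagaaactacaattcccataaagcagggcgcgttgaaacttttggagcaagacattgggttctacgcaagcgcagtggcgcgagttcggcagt

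In these stretches Ndufb4 held 3 NRF1 matches and 1 ERR match, Atp5g3 held 1 of each, Ndufs6 held 1 NRF1 match, and Uqcr10 held neither. No marked match overlapped another. The full RefSeq window, which runs 50 bases past the start, was found for 80 of the 96 members, in 86 windows. NRF1 letters stood in 22 of these 86 windows (25.6%) against 4.6% of all 32851 windows, and ERR letters in 9.30% against 4.72%. CCGGAAG, a motif of the ETS family to which GABPA belongs, stood in 23.3% against 8.86%, and AANATGGCG, the motif of YY1, in 15.1% against 2.38%. A match describes the letters only, and binding was not measured.

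The members took a larger share of all counts in the proximal and distal precursor classes than in cap mesenchyme in each of the 3 libraries. In Drop-seq the summed share was 2.858% in cap mesenchyme, 2.986% in early nephron epithelium, 3.185% in proximal and 3.194% in distal precursors. In 10x it was 3.231%, 3.454%, 4.045% and 4.386% in the same order. In C1 it was 5.467%, 4.946%, 5.995% and 5.965%, so early nephron cells lay above the cap in the droplet libraries and below it in C1. The exact binomial 95% intervals of these shares cover counting error only, and the widest of the 12, for distal cells in 10x, ran from 4.347 to 4.426%. The log2 ratio to the cap averaged 0.20 ± 0.10 (SD, n = 3 libraries) for proximal and 0.24 ± 0.17 (SD, n = 3) for distal precursors, so proximal and distal lay within their spread of each other. No test was made of the summed share: an exact paired permutation test over 3 libraries cannot go below p = 0.25. Cap mesenchyme itself was not uniform. Its clusters ran from 2.728% to 3.182% in Drop-seq, from 3.184% to 3.27% in 10x and from 5.1% to 5.812% in C1. The highest Drop-seq cap cluster, of 70 cells, thus lay next to the proximal class at 3.185%.

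Other classes ranked in a way that depended on the platform. Endothelium had 3.131% in Drop-seq and 3.811% in 10x, above the cap, and 5.137% in C1, below it. Stroma had 2.674%, 3.210% and 4.840%, a log2 ratio of -0.09 ± 0.08 (SD, n = 3) to the cap. It was below the cap in Drop-seq and C1. In 10x it was close to the cap, at a log2 ratio of -0.00953 with overlapping binomial intervals. Podocyte precursors had 2.972% in Drop-seq and 3.787% in 10x and formed no class of their own in C1. In Drop-seq, the cluster named erythroid had 1.949%, with 36.9% of its counts in erythroid markers. The macrophage genes Fcer1g, C1qb, Tyrobp and Apoe were also among its 10 leading genes, and the quartiles of its cells ran from 0.509% to 2.965%, so this value is not that of a uniform class.

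**Figure D1:**
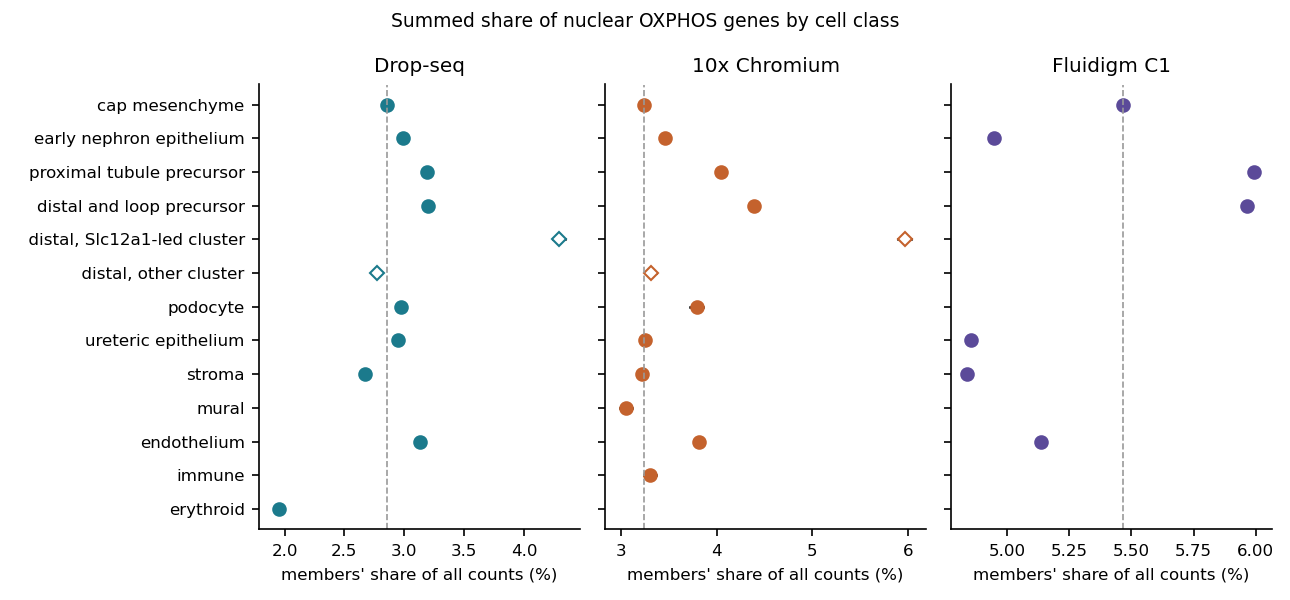
Summed share of the nuclear oxidative phosphorylation genes in all counts (x axis, percent; axes differ between panels and do not start at 0) for each cell class (y axis) in Drop-seq, 10x Chromium and Fluidigm C1. Filled points are shares of classes, open diamonds those of the 2 clusters of the distal class described further on, bars are exact binomial 95% intervals, often smaller than the point, and the dashed line is cap mesenchyme. Proximal and distal precursors lie to the right of that line in all 3 panels, and early nephron epithelium, ureteric epithelium and endothelium lie on different sides of it in different panels.

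The larger share in proximal precursors was spread over complexes I, III, IV and V. Complex I took 0.809%, 0.902% and 1.832% of cap counts and 0.900%, 1.134% and 1.938% of proximal counts in Drop-seq, 10x and C1. Complex V took 0.760%, 0.928% and 1.577% in the cap and 0.857%, 1.182% and 1.753% in proximal cells. Complex II, the smallest contributor, went from 0.0751% and 0.0708% to 0.0848% and 0.0860% in the droplet libraries, and in C1 was at 0.152% in the cap and 0.124% in proximal cells. Complex II was thus the only one of the 5 complexes whose proximal share lay below the cap in a library. Complex III went from 0.275%, 0.344% and 0.596% to 0.327%, 0.442% and 0.684%, and complex IV from 0.760%, 0.775% and 1.082% to 0.836%, 0.987% and 1.260%.

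The mitochondrially encoded subunits, which work in the same complexes, did not follow this order in every library. Their share in 10x was 4.776% in cap, 5.094% in proximal and 5.674% in distal cells, and in Drop-seq 2.343%, 2.156% and 2.397%. Proximal cells were thus above the cap in 10x and below it in Drop-seq. The C1 table lists no mitochondrial gene. Across single cells, Spearman's rho between a cell's member share and its mitochondrially encoded share was -0.35 in the 596 Drop-seq and -0.32 in the 196 10x cap cells, and 0.36 in the 117 proximal and 0.40 in the 133 distal cells of 10x. In Drop-seq it was 0.11 in 152 proximal and 0.09 in 204 distal cells. Both shares are of the same cell total, so these values describe the cells and are given with no test.

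Tested gene by gene, 7 members rose in proximal precursors against cap mesenchyme and none fell, by edgeR's quasi-likelihood test on counts summed per library and class, adjusted over 7478 genes. The 7 are 7.78% of the 90 members, against 5.62% of all tested genes called higher, 7.13% called lower and 12.7% in either direction, so the share called higher was near that of all genes. A further measure of direction, with no test, is that 71 of 90 members (78.9%) had a positive fold change against 42.4% of all genes. Of the members, 42 were higher and 5 lower in all 3 libraries, against 18.1% and 29.2% of all genes. The 5 include Ndufs5, which had no count in C1 and whose ratio there differed from 0 by rounding only. The median log2 fold change was 0.14 over members and -0.09 over all genes. At an unadjusted p under 0.05 there were 20 members, 22.2% against 26.9% of all genes.

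Ndufs6, a small accessory subunit of complex I at chr13:73319838-73328542 (mm10, GENCODE M21, minus strand), rose most. It had 147.7, 228.7 and 356.1 CPM (a gene's counts scaled by all counts of the class) in the cap of Drop-seq, 10x and C1, and 222.6, 418.4 and 793.2 CPM in proximal precursors. Each library's proximal value was above its own cap value, with log2 ratios of 0.53, 0.78 and 1.18. The fitted log2 fold change was 0.85 (SE 0.14, adjusted p = 0.000274, edgeR).

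Ndufa6 and Ndufb4, also accessory subunits of complex I, rose in the same comparison. Ndufa6 (chr15:82350140-82354322) went from 345.1, 288.4 and 534.5 CPM in the cap to 438.6, 580.0 and 695.7 CPM, a log2 fold change of 0.55 (SE 0.13, edgeR adjusted p = 0.00756). Ndufb4 (chr16:37647170-37654453) went from 148.4, 164.2 and 366.7 CPM to 178.5, 312.0 and 516.4 CPM, with 0.51 (SE 0.14, edgeR adjusted p = 0.0196). The change was largest in 10x for both. The core subunits that carry the electrons did not pass: Ndufv1, which binds NADH, had -0.14 (SE 0.15, edgeR adjusted p = 0.602) and Ndufs1, an iron-sulfur subunit, 0.23 (SE 0.16, edgeR adjusted p = 0.355).

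In complex III, Uqcr10 and Uqcrb rose, and all 8 tested members had positive values. Uqcr10 (chr11:4701973-4704342) had 321.1, 363.6 and 1323 CPM in the cap and 406.3, 570.8 and 1723 CPM in proximal cells, a log2 fold change of 0.42 (SE 0.12, edgeR adjusted p = 0.0236). Uqcrb (chr13:66900617-66905378), known as a ubiquinone-binding subunit, had 395.9, 542.8 and 729.5 CPM and then 499.6, 748.8 and 1037 CPM, with 0.41 (SE 0.11, edgeR adjusted p = 0.0170). Both were higher in proximal cells of every library. Uqcrfs1, the Rieske iron-sulfur protein at the catalytic core, had 0.18 (SE 0.14, edgeR adjusted p = 0.434).

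In complex V, Atp5g3 and Atp5o rose. Atp5g3 (chr2:73908447-73911326), 1 of 3 genes for the c subunit of the rotor, had 483.2, 328.4 and 1655 CPM in the cap and 567.2, 526.8 and 2109 CPM in proximal cells, a log2 fold change of 0.38 (SE 0.11, edgeR adjusted p = 0.0238). Its mature protein is known to be the same as that of Atp5g1 and Atp5g2, for which values were 0.23 (edgeR adjusted p = 0.204) and 0.14 (edgeR adjusted p = 0.494). Atp5o (chr16:91684398-91926982), a subunit of the stalk that holds the enzyme's head, had 591.8, 561.3 and 1349 CPM and then 771.4, 825.6 and 1629 CPM, with 0.36 (SE 0.11, edgeR adjusted p = 0.0348). In GENCODE M21, 31.6% of the exonic bases of Atp5o overlap another gene, so its counts are less certain. Of the catalytic subunits, Atp5b had 0.32 (edgeR adjusted p = 0.0829) and Atp5a1 0.20 (edgeR adjusted p = 0.246).

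Of these 7 genes, 6 had a promoter window, and NRF1 letters stood in 5 of the 6: Atp5g3, Atp5o, Ndufa6, Ndufb4 and Ndufs6. None of the 6 held the ETS motif, 1 held that of YY1 (Ndufs6, past the printed stretch) and 2 that of ERR. Over all members NRF1 letters stood in 25.6% of windows. With 6 windows this remains a description of the sequences.

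No complex II or complex IV member passed in proximal precursors. Sdhd, a membrane anchor of complex II, had 0.31 (SE 0.14, edgeR adjusted p = 0.139) and Sdhb, its iron-sulfur subunit, -0.23 (SE 0.13, edgeR adjusted p = 0.268). In complex IV 12 of 13 members had positive values, among them Cox6c with 0.32 (edgeR adjusted p = 0.0747) and Cox4i1 with 0.13 (edgeR adjusted p = 0.415). Cox7a1, an isoform known from heart and muscle, had the largest fitted value, 2.60 (SE 0.97, edgeR adjusted p = 0.0807), at low levels of 1.46, 1.19 and 2.22 CPM in the cap and 2.204, 8.18 and 24.1 CPM in proximal cells. The proximal values rest on 3, 8 and 380 counts.

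**Figure D2:**
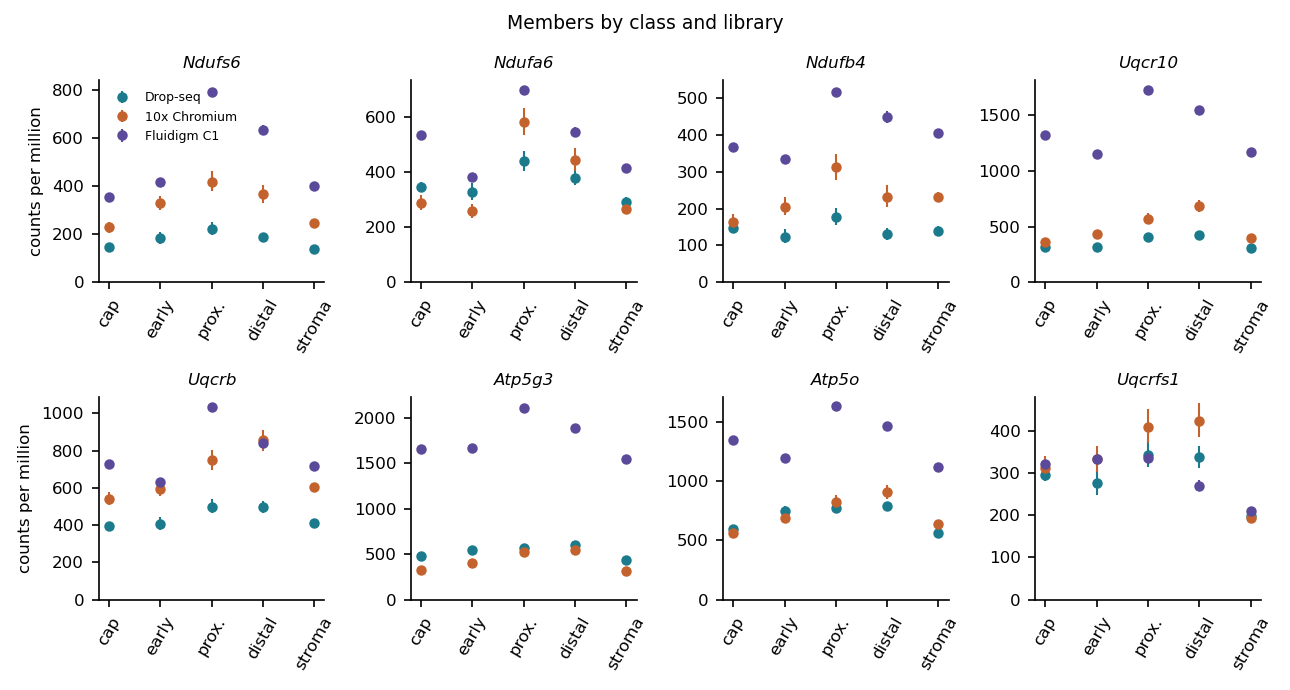
CPM (y axis, from 0) of members that the text describes, in the cap, early nephron, proximal, distal and stroma classes (x axis) of each library. Each point is the sum over the cells of 1 class in 1 library, with its exact Poisson 95% interval. Ndufs6 lies higher in proximal precursors than in the cap in all 3 libraries, and Uqcrfs1 lies lower in stroma than in the cap in all 3.

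In distal precursors against cap mesenchyme, scaled by TMM, Ndufs6 alone rose, from the cap values above to 186.8, 367.4 and 633.8 CPM, a log2 fold change of 0.51 (SE 0.14, edgeR adjusted p = 0.0298), and no member fell. That is 1 of 90 members (1.11%) against 3.08% of all genes called higher, 3.46% called lower and 6.54% in either direction. Positive fold changes were found for 60 members (66.7%, against 41.3% of all genes), and 31 were higher and 7 lower in all 3 libraries, against 16.8% and 28.8%. The median log2 fold change was 0.09 over members and -0.10 over all genes. This comparison and that of proximal precursors use the same cap sums as control, so their values are not independent.

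The proximal and distal classes were also compared directly, and no member passed edgeR's test, against 2.54% of all genes called higher in proximal, 1.97% called higher in distal cells and 4.51% in either direction. At an unadjusted p under 0.05 there were 12 members, 13.3% against 18.8% of all genes. DESeq2 called 1 and limma-voom 6 members, against 6.33% and 13.3% of all genes. Without a test, 58 members had a fold change above 0, against 49.6% of all genes, and 29 were higher in proximal and 11 higher in distal cells in all 3 libraries, against 19.3% and 20.2%. This direction depended on the setting. The median log2 fold change of 0.04 over members turned to -0.04 with scaling by total counts and to -0.02 at the finer clustering (Leiden resolution 1.6). In cells with no cycling marker count it was -0.25. There edgeR called 2 members, both higher in distal cells, against 3.94% of all genes in either direction. The largest fitted differences past Ndufa4l2 were Cox7a1 with 2.25 and Cox6b2 with -1.01 (edgeR adjusted p = 0.136), so Cox6b2, an isoform known from testis, lay higher in distal cells. Ndufaf7, a methyltransferase needed to assemble complex I, had 0.76 (edgeR adjusted p = 0.0514).

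**Figure D3:**
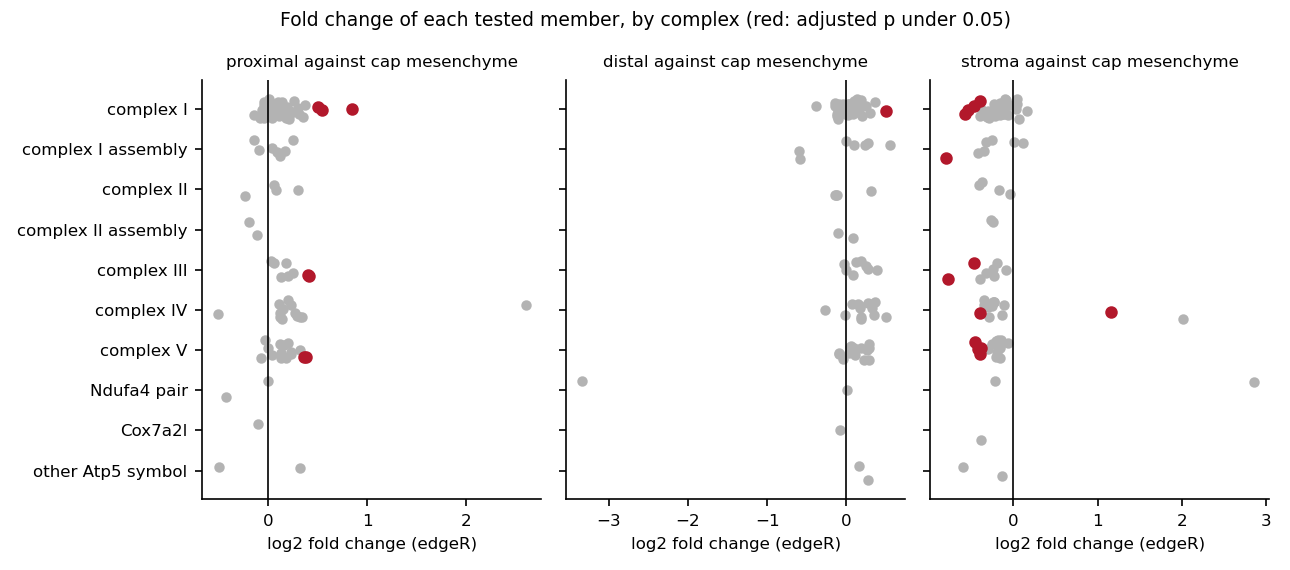
Log2 fold change (x axis, edgeR; axes differ between panels) of each of the 90 tested members, grouped by complex (y axis), in the 3 comparisons with cap mesenchyme. Each point is 1 gene, red where the adjusted p was under 0.05. The red points are 7 in proximal against cap, 1 in distal against cap, and 13 in stroma against cap, of which 12 lie left of 0.

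The distal class was not uniform. In Drop-seq its median cell had a member share of 2.852%, no higher than the 2.859% of the median cap cell, while its upper quartile was 3.330% against 3.154%. In 10x the quartiles of distal cells ran from 3.260% to 5.730%, the widest among the nephron classes of that library. The second round of clustering had split the distal class in Drop-seq and 10x in 2, and the values that follow compare these clusters. The split was chosen for description after its values were seen, so no test is given, although the members took no part in the clustering.

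One cluster, led by Slc12a1, the sodium-potassium-chloride cotransporter of the thick ascending limb, with Tmem52b, Sostdc1, Mal and S100g, held 60 Drop-seq and 63 10x cells. The other, led by Fgf8, Dkk1, Sox9, Tspan8 and Sim1 or Sim2, held 144 and 70 cells. Slc12a1 stood at 319.4 and 671.4 CPM in the former, in Drop-seq and 10x, and at 11.5 and 20.7 CPM in the latter. In C1 the distal class was a single cluster with 19.2 CPM of Slc12a1.

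The Slc12a1-led cells had the highest member share of any class or cluster described here in their library: 4.292% (95% binomial interval 4.239 to 4.345%) in Drop-seq and 5.966% (5.895 to 6.038%) in 10x. The other distal cluster had 2.770% and 3.314%, next to 2.858% and 3.231% in cap mesenchyme. The larger summed share of the distal class in the droplet libraries was thus carried by 60 of its 204 and 63 of its 133 cells. Median UMIs per cell were 7302.5 against 8163 in Drop-seq and 6102 against 9514.5 in 10x, so the Slc12a1-led cells were shallower, and the part of depth in the difference was not tested.

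Of the 90 members, 85 were higher in the Slc12a1-led cluster than in the other distal cluster in both libraries and none was lower in both, against 35.2% and 32.0% of all 7478 tested genes. Differences of 1.5-fold or more in both libraries were found for 44 of the 90 members, against 10.3% of all genes, and in the opposite direction for none, against 8.53%. Median log2 ratios were 0.61 and 0.78 over members and 0.05 and 0.01 over all genes. The 5 exceptions, each below 0 in 1 library, were Atp5g2, Ndufa2, Ndufaf1, Atp5s and Ndufa4l2, and the last 2 had at most 22 counts in any of these clusters.

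The difference ran through all 5 complexes. In complex I, Ndufa8 stood at 324.6 against 135.5 CPM in Drop-seq and 403.8 against 159.4 CPM in 10x. In complex II, Sdha, the flavoprotein that oxidises succinate, stood at 216.4 against 125.4 CPM and 258.2 against 105.2 CPM. In complex III, Uqcrfs1 stood at 542.8 against 257.6 CPM and 615.1 against 294.8 CPM. These 3 genes had log2 ratios between 0.79 and 1.34, and Ndufa8, like Ndufa2 in the paragraph on complex V, is named for its values.

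Complex IV genes had ratios of different sizes. Cox4i1, a subunit encoded in the nucleus, stood at 1564 against 993.9 CPM and 2453 against 1371 CPM, and Cox7c, a small structural subunit, at 490.4 against 416.0 CPM and 1204 against 801.7 CPM. The isoform Cox6b2 stood at 75.04 against 26.3 CPM and 105.6 against 30.3 CPM, from 43, 39, 45 and 19 counts.

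Atp5b, the catalytic beta subunit of ATP synthase, stood at 1644 against 886.7 CPM in Drop-seq and 2533 against 985.0 CPM in 10x, log2 ratios of 0.89 and 1.36. Atp5a1, the alpha subunit, stood at 1155 against 559.7 CPM and 1627 against 750.7 CPM. The genes for the c subunit had different ratios: Atp5g1 stood at 740.0 against 329.7 CPM and 1777 against 607.2 CPM, log2 ratios of 1.17 and 1.55. Atp5g2 stood at 466.0 against 411.3 CPM and 856.9 against 867.0 CPM, log2 ratios of 0.18 and -0.02. Among complex I genes Ndufa2 was also near 0, with 0.13 and -0.07.

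**Figure D4:**
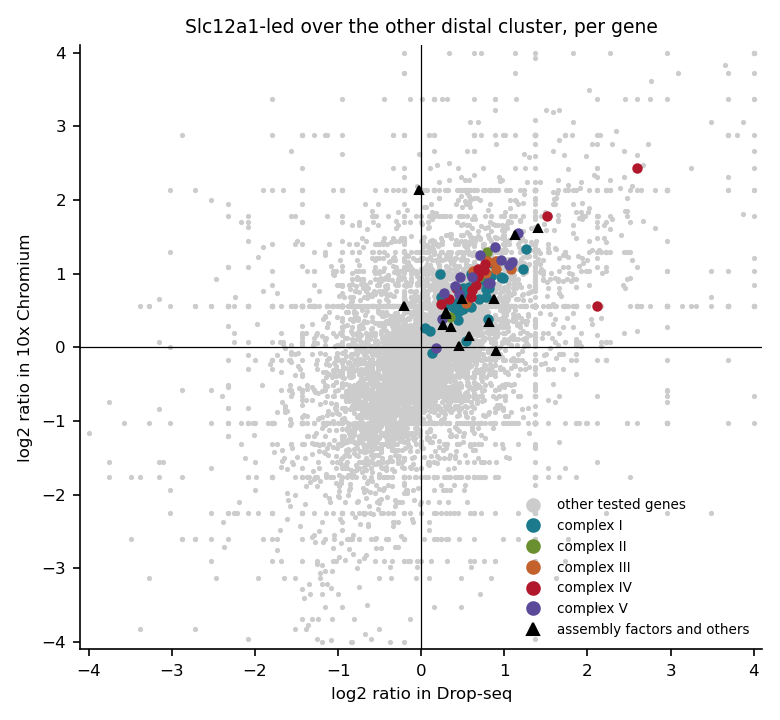
Log2 ratio of the Slc12a1-led over the other distal cluster in Drop-seq (x axis) and 10x Chromium (y axis) for each tested gene, drawn at -4 or 4 where beyond. Grey points are the other tested genes and the coloured points and black triangles are the 90 members. Of the members, 85 lie above 0 on both axes, and Atp5g2 and Ndufa2 lie near the origin.

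Against cap mesenchyme, the Slc12a1-led cluster had 85 members higher and 1 lower in both libraries, against 40.0% and 30.9% of all genes, and 40 members (against 17.1% of all genes) were higher by 1.5-fold or more in both. The other distal cluster had 24 members higher and 36 lower in both, against 39.6% and 26.3% of all genes, and none higher by 1.5-fold in both, against 8.79%. Its median log2 ratios to the cap were -0.08 and 0.02. The same cap cells serve in both of these comparisons. The 1 member lower by 1.5-fold, against 8.76% and 4.8% of all genes, was in each case Ndufa4l2, with 14 and 4 counts in the cap and at most 1 in a distal cluster.

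Other measures moved with the split. Mitochondrially encoded subunits took 2.633% of counts in the Slc12a1-led and 2.305% in the other distal cluster of Drop-seq, and 6.749% and 4.945% in 10x. Genes of the tricarboxylic acid (TCA) cycle and pyruvate dehydrogenase took 0.494% against 0.273% and 0.536% against 0.271%, and genes of fatty acid oxidation 0.248% against 0.120% and 0.257% against 0.110%. Glycolysis genes were higher too, at 0.644% against 0.388% and 0.873% against 0.606%. Cell cycle genes were lower, at 0.337% against 0.610% and 0.104% against 0.523%. Free haemoglobin RNA did not move with the split in the same way in both libraries: Hbb-bs stood at 2321 against 182.7 CPM in Drop-seq and at 16.4 against 474.9 CPM in 10x.

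A related split was seen in proximal precursors of 10x, where 49 cells led by Slc34a1, the sodium-phosphate cotransporter of the proximal tubule, had a member share of 4.488% and the other 68 cells 3.757%. Here 76 of 90 members were higher, against 54.1% of all genes, and 8 by 1.5-fold or more, against 28.6% of all genes. The median log2 ratio was 0.24 over members and 0.09 over all genes. Mitochondrially encoded subunits took 5.647% against 4.736%. In Drop-seq and C1 the proximal class was a single cluster, so the proximal split has no second library.

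Cell cycle state was examined through cells with no count of Mki67, Top2a, Cdk1 or Ccnb1, a class that also depends on depth. Distal cells without such a count had a member share of 3.989% in Drop-seq (27 cells, median 5913 UMIs) against 3.118% in the 177 with a count (8525 UMIs). In 10x the values were 5.595% (54 cells, 5748.5 UMIs) against 3.825% (79 cells, 9345 UMIs). This division overlaps that of the 2 distal clusters. A cycling marker count was found in 76.67% of Slc12a1-led and 90.97% of other distal cells in Drop-seq, and in 31.75% and 84.29% in 10x. Which of cell cycle, cluster and depth went with the distal difference was not tested. Proximal cells differed less, with 3.437% against 3.130% and 4.226% against 3.881%. Cap cells did not follow that order, with 2.835% against 2.862% and 3.173% against 3.259%, at median depths of 5471 and 7239.5 UMIs in Drop-seq and 7336 and 9022 UMIs in 10x.

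With the fit restricted to cells without a cycling marker count, which leaves Drop-seq and 10x, edgeR called 41 of 85 members higher in distal precursors, against 12.1% of 4742 genes in either direction, and 21 of 85 in proximal precursors, against 11%. No member was called lower in these 2 comparisons. The restriction keeps a larger part of the Slc12a1-led than of the other distal cells, and the weight of that in the 41 was not tested. All 7 genes called in proximal cells of every kind were among the 21, and Ndufs6 was among the 41. The restricted fit uses a part of the same cells, so these calls are not independent of those of the main fit. Scaling by total counts in place of TMM moved the count in the distal class from 1 to 16 members, all higher, against 6.12% of all genes. Without 10x the proximal count was 1, without Drop-seq 2 and without C1 15, against 3.94%, 3.93% and 14.4% of all genes in either direction. The distal count was 0 without Drop-seq or without 10x and 6 without C1, against 0.813%, 1.33% and 10.2% of all genes.

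Stroma was the class outside the nephron lineage that was compared with the cap, and 12 members fell while 1 rose, against 5.19% and 2.93% of all genes (8.12% in either direction). Only 10 of 90 members had a positive fold change, against 40.8% of all genes, and 56 were lower and 5 higher in all 3 libraries, against 34.3% and 19.6%. The median log2 fold change was -0.23 over members and -0.10 over all genes. Scaling by total counts shifted the median of all genes to 0.04 and that of members to -0.09, so members stayed below all genes. The count of 13 fell to 0 without Drop-seq and to 1 without 10x, and was 10 without C1, with 3 higher and 7 lower. Of all genes, 0.313%, 0.983% and 12.9% were called in these 3 fits. Dissociation stress genes moved with this comparison: of 22 tested, 4 rose (Klf4, Klf6, Hspb1 and Atf3) and none fell, with a median of 0.26 against -0.10 over all genes. Their part in the members' lower values was not tested.

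Uqcrfs1, the Rieske protein of complex III (chr13:30540308-30545362), fell with the smallest p. It had 295.7, 312.9 and 322.5 CPM in the cap and 197.9, 194.3 and 209.0 CPM in stroma of Drop-seq, 10x and C1, a log2 fold change of -0.78 (SE 0.14, edgeR adjusted p = 0.000987). The groups did not overlap across the 3 libraries. Uqcr11, a small subunit of the same complex, fell by 0.47 on the log2 scale (edgeR adjusted p = 0.00849).

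In complex I, Ndufv1 fell by 0.57 (edgeR adjusted p = 0.0185), Ndufb7 by 0.55 (edgeR adjusted p = 0.00781) and Ndufab1, the mitochondrial acyl carrier protein, by 0.47 (edgeR adjusted p = 0.0478), all on the log2 scale. Ndufv1 went from 132.7, 151.1 and 209.9 CPM to 107.6, 122.4 and 135.4 CPM. The assembly factor Ndufaf6 fell by 0.80 (edgeR adjusted p = 0.0312) at levels of 27.1, 19.7 and 65.3 CPM in the cap and 19.5, 14.3 and 35.5 CPM in stroma. In complex V, Atp5g2, Atp5c1 and Atp5d, for the c, gamma and delta subunits, fell by 0.46, 0.43 and 0.40 on the log2 scale (edgeR adjusted p = 0.0164, 0.0186 and 0.0280). Cox8a, Ndufb5 and Atp5f1 also fell and make up the 12.

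Cox6b2 was the 1 member that rose in stroma. It had 30.8, 34.6 and 34.6 CPM in the cap and 71.2, 94.7 and 74.8 CPM in stroma, a log2 fold change of 1.16 (SE 0.35, edgeR adjusted p = 0.0424). After thinning each cell to 4000 UMIs, a UMI of Cox6b2 was seen in 24.9% of 402 stroma and 10.3% of 580 cap cells in Drop-seq and in 31.1% of 662 and 13.7% of 175 cells in 10x. In endothelium it was seen in 0.980% of 102 and 1.19% of 336 thinned cells. Distal (12.8% and 29.1%) and ureteric cells (17.2% and 17.8%) lay between the cap and stroma, as did the Drop-seq erythroid cluster (22.4%). Early nephron, proximal and podocyte cells lay below the cap in both libraries. Median depths before thinning were 6413 and 6476 UMIs in stroma and 6910.5 and 8914 in endothelium, and 37.7% and 44.3% of unthinned stroma cells had a UMI.

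In 10x, Ndufa4l2, a paralogue of Ndufa4 known to be induced by hypoxia, was highest in mural cells. This is the smooth muscle and pericyte class that only 10x resolved. Cox4i2, the alternative form of Cox4i1, was about as high in an unnamed 10x cluster of 69 cells as in mural cells. Ndufa4l2 stood at 588.3 CPM in the 55 mural cells, 32.1 CPM in stroma, 2.39 CPM in cap mesenchyme and at 0 in proximal and distal cells, where a count of 0 allows up to 3.07 and 2.85 CPM. Cox4i2 stood at 167.1 CPM in mural cells, 18.0 CPM in stroma and 2.99 CPM in the cap. The unnamed cluster had 322.1 CPM of Ndufa4l2 and 164.0 CPM of Cox4i2. Both genes were among its 10 leading genes, with Akr1b7, Fabp7, Cygb, Kcnj8 and Abcc9.

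After thinning, a UMI of Ndufa4l2 was seen in 34 of 46 mural cells (73.9%, 58.9 to 85.7%), 26 of 50 cells of the unnamed cluster (52.0%), 63 of 662 stroma cells (9.52%) and 0 of 336 endothelial cells. The 0 allows a share of up to 0.893%. For Cox4i2 the shares were 41.3%, 40.0%, 7.40% and 0.595%, and podocyte precursors (8.70% of 46) and early nephron cells (6.61% of 121) also lay above endothelium. Before thinning, mural cells had a median of 4965 UMIs, the unnamed cluster 7703 and endothelium 8914, and 81.8% and 50.9% of mural cells had a UMI of Ndufa4l2 and Cox4i2. In C1, Ndufa4l2 stood at 0.667 CPM in stroma (41 counts), 1.094 CPM in endothelium (22 counts) and 0.269 CPM in the cap (4 counts), so stroma did not lie above endothelium there. Against the cap, Ndufa4l2 in stroma had a log2 fold change of 2.85 (edgeR adjusted p = 0.0666) and Cox4i2 2.01 (edgeR adjusted p = 0.169), so neither passed. Without C1 both passed, with 2.97 (edgeR adjusted p = 0.000521) and 1.86 (edgeR adjusted p = 0.0169), and Ndufa4l2 also passed with DESeq2 (adjusted p = 0.0416) and at Leiden resolution 0.6 (edgeR adjusted p = 0.0373).

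**Figure D5:**
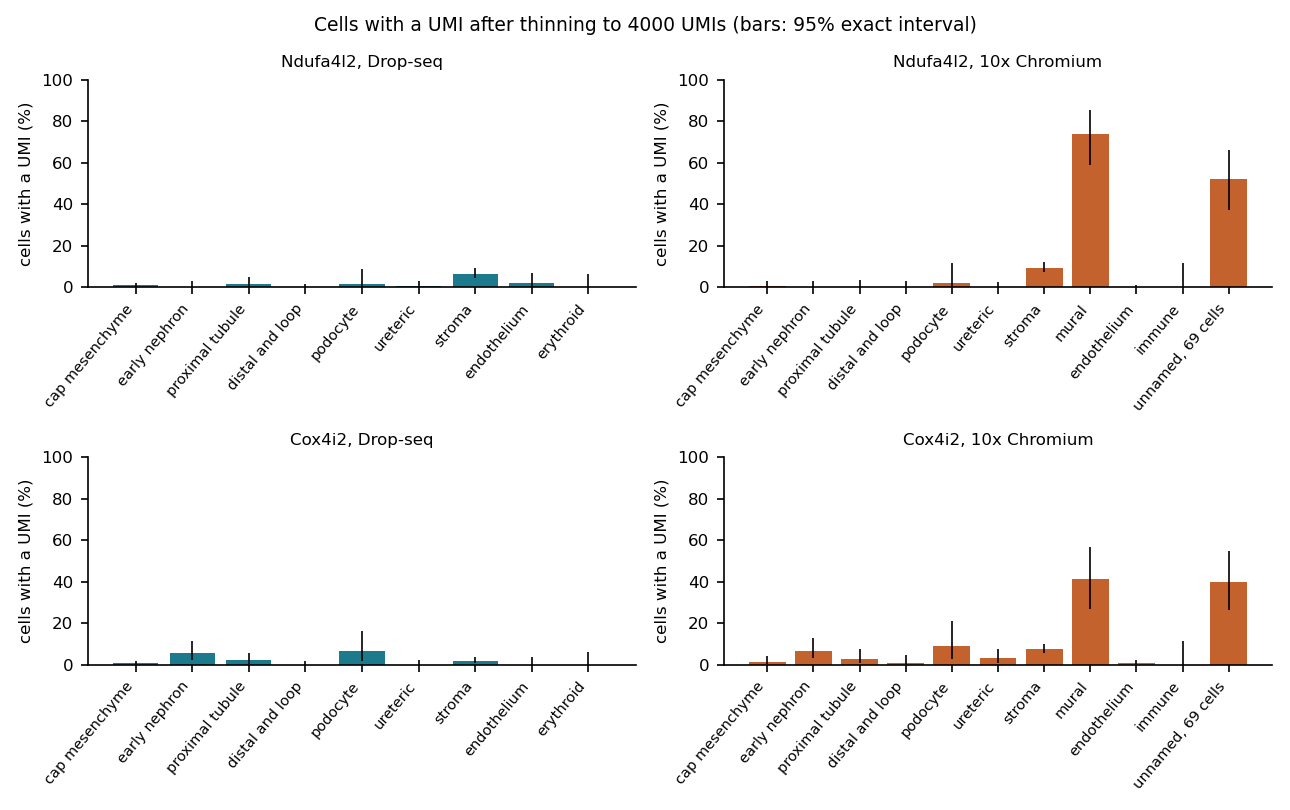
Percent of cells with a UMI of the isoform genes (y axis, 0 to 100) by cell class (x axis) in the droplet libraries, after thinning every cell to 4000 UMIs and leaving out shallower cells. Bars are exact binomial 95% intervals. Ndufa4l2 reaches 73.9% and Cox4i2 41.3% of mural cells in 10x, and endothelium lies at 0% and 0.595%.

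Genes that feed or regulate the respiratory chain were taken from lists outside the symbol rule. Their counts stand beside 5.62% of all genes called higher and 7.13% called lower in proximal, and 3.08% and 3.46% in distal precursors. Of 36 other oxidative phosphorylation genes tested, such as cytochrome c and assembly factors, 2 rose and none fell in proximal precursors against the cap: Atpif1, the inhibitor of ATP synthase, by 0.74 (edgeR adjusted p = 0.000429) and Tmem126a by 0.44 (edgeR adjusted p = 0.0399), both on the log2 scale. In distal precursors Hccs, which attaches haem to cytochrome c, and Coa3, a complex IV assembly factor, rose by 1.17 and 0.47 (edgeR adjusted p = 0.0305 and 0.0371). The 2 of 36 in proximal cells are no larger a share than that of all genes. The medians were 0.17 and 0.05, beside -0.09 and -0.10 over all genes.

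Among 19 tested regulators of mitochondrial biogenesis, 2 rose and 1 fell in proximal and 2 rose and 2 fell in distal precursors. Ppargc1a, the coactivator PGC-1 alpha, had 4.38, 6.57 and 7.45 CPM in the cap, 28.7, 55.2 and 15.7 CPM in proximal and 44.8, 137.6 and 21.9 CPM in distal cells, with log2 fold changes of 2.05 (edgeR adjusted p = 0.0107) and 2.89 (edgeR adjusted p = 0.00160). In the distal class it stood at 106.5 and 286.4 CPM in the Slc12a1-led and 20.9 and 36.7 CPM in the other cluster. Esrrg, an estrogen-related receptor that Ppargc1a coactivates, had 0.417 CPM in the cap of Drop-seq and no count in the cap of 10x and C1, which allows 1.79 and 0.201 CPM. It stood at 13.96, 13.3 and 32.9 CPM in proximal and 17.5, 11.4 and 12.6 CPM in distal cells, and passed edgeR's test in both comparisons (adjusted p = 0.000271 and 0.00119). In proximal cells Ppargc1b fell by 2.77 on the log2 scale (edgeR adjusted p = 0.0331). In distal cells Myc and Nrf1, which encodes the factor of the promoter motif above, fell by 1.16 and 1.02 (edgeR adjusted p = 0.0370 and 0.0327).

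Of 19 fatty acid oxidation genes tested, 6 rose and 1 fell in proximal precursors, led by Acadm with 1.70 and Acadl with 1.17 (edgeR adjusted p = 1.57e-05 and 0.00243), which encode acyl-CoA dehydrogenases, while Acaa2 fell by 1.602 on the log2 scale. Compared directly, 5 of these genes were higher in proximal than in distal cells and 1 was lower, beside 2.54% and 1.97% of all genes. The distal class was again mixed: the summed share of the list in the Slc12a1-led distal cells, 0.248% in Drop-seq and 0.257% in 10x, lay above that of proximal cells, which was 0.184% in Drop-seq and 0.236% and 0.184% in the 2 proximal clusters of 10x. Of 20 glycolysis genes, 2 rose and 8 fell in proximal cells, with Pfkp at 3.78 (edgeR adjusted p = 7.02e-05), Slc16a3, a lactate exporter, at -2.74 (edgeR adjusted p = 0.000174) and Hk1, a hexokinase, at -2.08 (edgeR adjusted p = 0.00385). In distal cells 2 of the glycolysis genes rose and 3 fell. Of 23 TCA cycle and pyruvate genes, 2 rose in proximal and 4 in distal cells and none fell, with Mpc2, a part of the mitochondrial pyruvate carrier, at 2.70 and 1.6001 (edgeR adjusted p = 6.42e-07 and 0.000218). Of 30 cell cycle genes 3 fell in proximal and 1 in distal cells, and of 22 dissociation stress genes 2 and 3 rose and 3 and 2 fell. The cell cycle counts, and that of TCA genes in proximal cells, are close to the shares of all genes called in that direction.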

How the data were processed

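The authors deposited 1 table of whole-number counts per gene and cell for each platform, per the labels and file headers: UMI counts for Drop-seq and 10x Chromium, and read counts for Fluidigm C1. Per the submitters' processing notes, reads were aligned to mm10 with Bowtie2 2.2.7 (Drop-seq, C1) or processed with Cell Ranger 1.3.0 (10x). The sources used here do not name the counting tool or annotation, nor how 10x and C1 cells were prepared. The normalized copies of the tables were not used.

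Cells with under 500 genes or over 20% mitochondrial counts were left out, as were called doublets (17 in 10x, 11 in C1; in Drop-seq the caller marked 5 cells, under 0.5%, and was taken to have failed, so none was removed). Clusters came from scanpy 1.11.5 (2000 variable genes, 30 components, 15 neighbours, Leiden resolution 1, repeated within the nephron lineage) and were named from 14 marker lists. Shares and CPM are of all counts in a class. Counts were summed per library and class (20 cells or more, 23 sums, 8 classes) and tested with edgeR 4.0.16 (quasi-likelihood, TMM, library as a block, 13 residual degrees of freedom, two-sided). Benjamini-Hochberg adjustment ran over 7478 genes that served neither clustering nor naming, with a threshold of 0.05. Counts kept were 17751487 (Drop-seq), 17465306 (10x) and 171283962 (C1). Log2 ratios per library used a prior count of 2.

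The members, gene lists, marker lists and motifs were chosen with earlier results of these data known. Genes were named by rule: per comparison up to 10 called members with 1 direction in every library, the 4 largest others, landmark subunits of each complex, and the 3 largest changes of each further list. The landmarks are given where a comparison turns on them. Of the members, 22 share over 5% of their exonic bases with another gene, and over 50% do so in Ndufaf2 and Sdhaf1. The replicate libraries differ in platform. As the library is a block, p-values measure how far class differences vary from library to library. That spread is shared over the sums of all 8 classes. In simulated counts for proximal against cap mesenchyme (12056 genes, 7323 tested), the test recovered 8% of genes changed 1.5-fold, 56% at 2-fold, 76% at 3-fold and 94% at 4-fold, and called 6 unchanged genes. The changed genes were drawn from all tested genes above a minimum mean count, not from the members. These rates are therefore not those of the members. Alternatives covered DESeq2 1.42.0, limma 3.58.1, scaling, filters, clustering and each library left out. RefSeq protein sequences were not used here.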

Additional observations from a re-analysis of the deposited data

Results flagged for a closer look

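Some values had opposite signs in different libraries, and these differences between libraries were not tested. The log2 ratio of the summed member share to cap mesenchyme in early nephron epithelium was 0.0632 and 0.0962 in Drop-seq and 10x, and -0.145 in C1. In ureteric epithelium it was 0.0435, 0.00834 and -0.172, and in endothelium 0.132, 0.238 and -0.0899. In all 3 classes the droplet libraries lay above and C1 below the cap.

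Of single members, Atp5sl in proximal precursors had log2 ratios to the cap of -0.470, 0.103 and -1.02 in Drop-seq, 10x and C1. Ndufa4l2 in proximal precursors had 0.257, -3.58 and -0.0274, from at most 14 counts per sum. Ndufaf6, a complex I assembly factor, had -0.509, 0.173 and -1.16 in distal precursors. Ndufaf3, a further complex I assembly factor, had -0.338, 0.197 and -0.854 in stroma.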

How the results depend on the processing

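The log2 ratio of the summed share to the cap (0.20 proximal, 0.24 distal, -0.09 stroma) kept its sign in each alternative on cell filters, doublets, clustering, class naming, total, weighting of cells, reading of the symbol rule and left-out libraries. It moved by over 1 SD only in cells with no cycling marker count, to 0.346 proximal and 0.656 distal. Among alternatives chosen after seeing the data, the Slc12a1-led cluster alone gave 0.736 for distal cells, and the other cluster alone turned the sign, to -0.00426.

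Counts of called members depended on the setting, and the cause was not tested. In proximal against cap mesenchyme the count of 7 became 16 with limma-voom, 13 with total counts, 0 with no replicate block, 19 at Leiden resolution 1.6, 20 with classes by marker score, 15 with no doublet removed and 21 in cells with no cycling marker, and ranged from 1 to 15 with 1 library left out. Of all genes, 24.5%, 12.9%, 1.36%, 10.5%, 11.8%, 14.8% and 11% were called in that order, and 3.93% to 14.4% with 1 library left out. In distal against cap the count of 1 became, in the same order of settings, 6, 16, 0, 18, 7, 0 and 41. The shares of all genes there were 13.3%, 6.12%, 0.629%, 6.29%, 4.86%, 3.1% and 12.1%. The distal count was 4 with DESeq2, 4 with DESeq2 size factors and 3 with a stricter minimum of genes per cell, against 7.77%, 6.27% and 6.17% of all genes. With 1 library left out it ranged from 0 to 6, against 0.813% to 10.2% of all genes. In proximal against distal the count of 0 became 1 with DESeq2 and 6 with limma-voom. It was 2 each with marker scores, the stricter minimum of genes and cells without cycling markers. Of all genes, 6.33%, 13.3%, 3.15%, 6.28% and 3.94% were called in that order. With 1 library left out the count ranged from 0 to 2, against 0.5% to 5.01% of all genes. In stroma against cap the count of 13 became 29 with limma-voom, 5 with total counts, 7 with no filter and 0 with no replicate block. It became 2 at resolution 1.6, 6 with marker scores, 6 with the stricter minimum of genes, 2 with no doublet removed and 2 in cells without cycling markers. Of all genes, 19.1%, 7.18%, 3.9%, 0.0669%, 3.32%, 5.97%, 6.46%, 4.89% and 6.16% were called in that order. With 1 library left out the count ranged from 0 to 10, against 0.313% to 12.9% of all genes. Members called under these settings were higher in proximal and distal cells against the cap, except 2 of 16 proximal and 3 of 6 distal members with limma-voom and 1 of 3 distal members with the stricter minimum of genes, which were lower. In proximal against distal, 1 of 6 with limma-voom, 1 of 2 with marker scores and both in cells without cycling markers were lower in proximal cells. In stroma 12 of 13 were lower, and 4 of 5 with total counts. The block is the library, so the classes of a comparison are paired within it.

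Over 534 values of named members, 403 kept direction and call, 109 lost the call, 17 gained it and 5 turned sign: in cells with no cycling marker Cox6b2 (0.154) and Atp5sl (0.415) in proximal and Ndufaf6 (0.546) and Ndufaf7 (0.0552) in distal precursors, and without 10x Ndufa4l2 in proximal precursors (0.110, and -1.13 without Drop-seq). The 403 include values of members that were uncalled in the main fit and stayed so, while all 109 come from called members. Of 16 alternatives, the 7 genes called in proximal precursors kept their call in 11 (Atp5o) to 15 (Ndufs6), and Ndufs6 in distal precursors in 10. In stroma Uqcrfs1 kept it in 14, Cox6b2 in 11, Atp5g2 in 10, Ndufb7 and Uqcr11 in 9, Ndufv1 in 8, Atp5c1 in 7, Ndufaf6 in 5, Atp5d in 3 and Ndufab1 in 2. The distal class of C1 was absent at resolution 0.6 and with no doublet removed, and C1 gave no cells without cycling markers for these fits. Depth limits the genes under about 10 CPM, which rest on few counts in the droplet libraries.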
